A study of Mus musculus with 82 samples.

Results

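In mouse embryonic stem cells, 1030 of the 14903 Adnp peaks listed on chromosomes 1 to 19 (6.91%) lay inside very long protein-coding genes. A gene counted as very long when it spanned 200 kb or more, and a peak counted as inside when it lay wholly within the gene and at least 5 kb from both gene ends. Of 20560 protein-coding genes on these chromosomes, 945 were that long, with a median span of 326 kb and a longest span of 2271 kb. Together their inner stretches, the gene without 5 kb at each end, covered 390 Mb, and 3 of the peaks lay in a pair of overlapping long genes.

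The study mapped the transcription factor Adnp and the HP1 proteins by ChIP-seq and followed their loss by RNA-seq. The Adnp list pooled 3 ChIP replicates from untreated ES cells of a hybrid 129-C57BL/6 background, whose Adnp carried the FlagAvi tag and which grew in 2i medium with LIF. Chromatin was crosslinked, sheared to about 300 bp and captured on streptavidin beads, with 1% kept as input. A second pooled list held HP1γ (Cbx3) peaks chosen by the authors for lacking the Adnp motif, so it is no full map of HP1γ. Its samples were cells with FlagAvi-tagged Cbx3 in 3 Adnp knockout and 3 wild-type replicates, and its peak names point to the knockout. Both lists are single sets of called positions, so no error between replicates can be given, the depth behind a peak is unknown, and each interval given here is a 95% interval for counting error only. Markers of ES cells cannot be read from a peak list.

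Adnp is a protein with zinc fingers and a homeodomain that binds DNA and forms the ChAHP complex with the chromatin remodeller Chd4 and HP1 proteins. Very long genes are long because of their introns. Many of them encode neuronal adhesion molecules, ion channels, receptors and synaptic scaffolds, several of them at known fragile sites, while others encode cytoskeletal giants or transcription factors used in many tissues.

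The rule leaves out peaks within 5 kb of a long gene's own ends, so most gene starts met here belong to other genes. No share for the other Adnp peaks stands beside the count, which is a description only. In the RefSeq table of promoters, in which each window runs from 250 bases before a gene's start to 50 bases after it, 7 of the 1030 peaks touched 8 windows. In 1 case the window belonged to the long gene itself, Tmeff2. The peak covered 3 windows whole, and these are shown because they are the starts of other genes, nested in or running across a long one, that carried Adnp (RefSeq, GRCm38.p6, read on the strand of the gene named). Msl3l2 lies inside Tbc1d32, a cilium gene, at chr10:56106667-56106966 on the plus strand. The noncoding RNA gene Gm36208 lies inside the phosphatase gene Ppm1h at chr10:122792511-122792810 on the minus strand. Dcp1a, which encodes an mRNA decapping activator, starts inside the calcium channel gene Cacna1d at chr14:30479315-30479614 on the plus strand. Capitals mark each CG pair.
Msl3l2: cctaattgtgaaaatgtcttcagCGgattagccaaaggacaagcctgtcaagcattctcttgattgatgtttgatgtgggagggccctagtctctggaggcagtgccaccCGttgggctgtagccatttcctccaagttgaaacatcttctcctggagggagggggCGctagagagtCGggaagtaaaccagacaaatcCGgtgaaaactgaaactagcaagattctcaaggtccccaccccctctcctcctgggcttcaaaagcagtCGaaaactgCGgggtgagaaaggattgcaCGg
Gm36208: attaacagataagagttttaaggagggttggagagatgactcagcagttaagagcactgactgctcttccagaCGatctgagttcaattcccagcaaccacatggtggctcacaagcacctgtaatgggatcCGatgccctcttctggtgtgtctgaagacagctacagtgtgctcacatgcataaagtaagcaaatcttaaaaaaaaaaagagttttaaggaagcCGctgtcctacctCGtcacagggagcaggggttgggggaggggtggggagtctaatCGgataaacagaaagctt
Dcp1a: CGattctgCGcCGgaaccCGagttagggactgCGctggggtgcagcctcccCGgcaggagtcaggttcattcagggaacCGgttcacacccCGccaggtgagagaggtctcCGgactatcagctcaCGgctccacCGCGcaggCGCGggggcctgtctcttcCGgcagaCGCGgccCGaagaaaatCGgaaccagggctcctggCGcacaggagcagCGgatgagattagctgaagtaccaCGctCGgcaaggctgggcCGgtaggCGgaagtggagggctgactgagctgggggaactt
The window of Dcp1a holds 25 CG pairs, more than in 81.6% of 32851 RefSeq promoter windows, whose median is 7 pairs. The windows of Msl3l2 and Gm36208 hold 8 and 5. Only the window of Dcp1a among the 3 was thus far from the median. The peaks over Msl3l2, Gm36208 and Dcp1a had scores of 38.5, 15.9 and 18.3 on the authors' peak score, whose kind is not stated and which serves only to rank peaks within the list.

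The inner stretches of very long genes held fewer Adnp peaks for their length than the rest of the autosomes. Their rate was 0.264 peaks per 100 kb (0.248 to 0.280), against 0.689 (0.678 to 0.701) over the rest of chromosomes 1 to 19, a ratio of 0.383 (0.359 to 0.408). They made up 16.2% of the chromosome length and held 6.91% of its peaks. Shorter genes, cut back by 5 kb at each end in the same way, were denser. The rate was 1.34 (1.27 to 1.41) in genes of 20 to 50 kb, 1.07 (1.02 to 1.13) in genes of 50 to 100 kb and 0.745 (0.705 to 0.787) in genes of 100 to 200 kb.

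The decline of the pooled rate with span went on within the very long genes. From 200 to 300 kb, 412 genes held 451 peaks, 0.477 per 100 kb (0.434 to 0.523). The rate was 0.350 (0.306 to 0.398) in the 195 genes of 300 to 400 kb and 0.237 (0.206 to 0.270) in the 193 genes of 400 to 600 kb. In the 90 genes of 600 to 1000 kb it was 0.129 (0.103 to 0.159), and in the 55 genes of 1 Mb or more, with 49 peaks between them, 0.0674 (0.0499 to 0.0891). None of these 5 intervals overlapped its neighbour. The number of peaks per gene changed far less than the rate. From the shortest class to the longest there were 451 peaks in 412 genes, 229 in 195, 216 in 193, 87 in 90 and 49 in 55. Gene by gene, rate and span had a Spearman coefficient of -0.135 and a Pearson r of -0.164. The listed HP1γ peaks, those without the Adnp motif, were fewer but also thinned out with span, at 0.0518 per 100 kb in genes of 200 to 300 kb and 0.0165 (0.00853 to 0.0288) in genes of 1 Mb or more, where 12 HP1γ peaks were left. The HP1γ rate was not lower at every step: it was 0.0285 from 400 to 600 kb and 0.0371 from 600 to 1000 kb, with overlapping intervals.

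**Figure D1:**
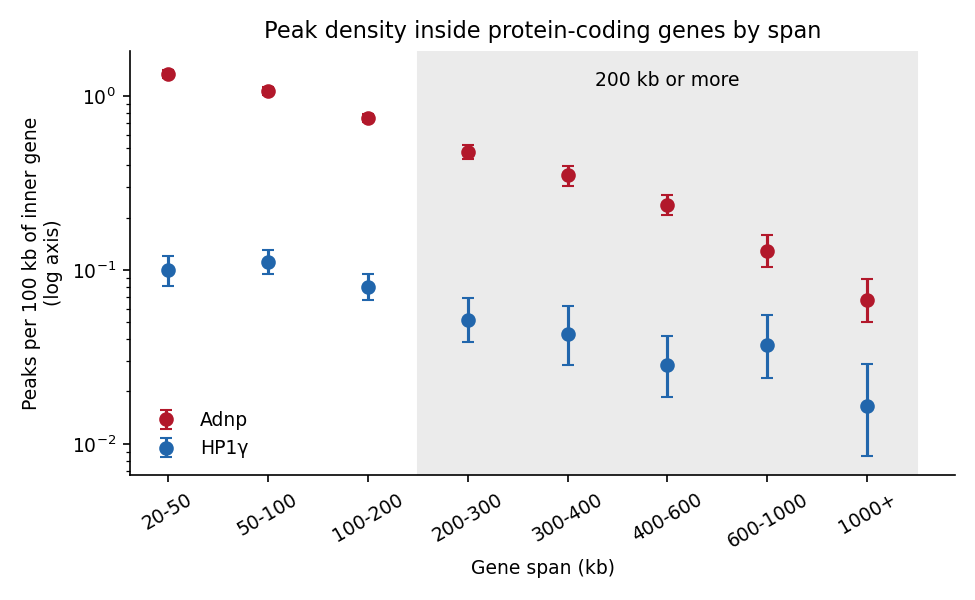
Peaks per 100 kb of inner gene length (log axis) against gene span in kb, for the Adnp list (red) and the list of HP1γ peaks without the Adnp motif (blue). Points are pooled rates, bars are exact Poisson 95% intervals, and the shaded classes are genes of 200 kb or more; the Adnp rate goes down from 1.34 in the shortest class to 0.0674 in the longest.

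Most long genes held no Adnp peak. Of the 945, 551 (58.3%, Wilson interval 55.1 to 61.4) were empty, 169 held 1 peak and 225 held 2 or more. The median gene thus had a rate of 0 and the upper quartile stood at 0.437 per 100 kb. Counts were uneven: the mean was 1.09 peaks per gene with a variance of 4.72, the 10 genes with most peaks held 148 of them (14.3% of the counts over genes), and 80 genes held 50%. Empty genes were about as long as the others, with a median span of 328 kb in empty genes and 323 kb in genes with a peak. At the 200 kb limit itself, the 3 genes just above it, Plcxd3, Pcbp3 and Pbx3, held 0, 1 and 0 peaks, and the 3 just below it, Morc1, Sergef and Atp9b, held 3, 1 and 0.

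Each gene's count was compared with the rate of all other long genes by an exact two-sided binomial test given inner lengths, with Benjamini-Hochberg adjustment over the 945 genes and a threshold of 0.05. The test treats peaks as independent, and its p-values describe this list, not replicates. It called 45 genes dense, 4.76% of those tested, and these held 368 peaks in 15.1 Mb of inner length. Without them the rate of the remaining long genes was 0.176 (0.162 to 0.189). With peaks less than 10 kb apart joined into 1 region before the test, 28 of the 45 were called again. The 17 that were not include Cdh13, Dlgap1, Ank2, Macf1, Baz2b, Tanc1 and Ptprg, described below.

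The densest genes belonged to no single class of protein. Dnah8, an axonemal dynein heavy chain that drives the beating of sperm tails, held 23 peaks in a span of 249 kb on chromosome 17, 9.63 per 100 kb (6.10 to 14.5, adjusted exact p = 3.33e-25). Fry, a very large protein of cell shape and division, held 22 peaks (5.96 per 100 kb, adjusted exact p = 6.57e-20), and Mtus2, a microtubule-binding protein encoded on the same chromosome 5, held 17 (4.87). Pitpnc1, a phosphatidylinositol transfer protein, held 17 peaks as well (6.72 per 100 kb). Its flanks were the fullest of all dense genes, with 43 peaks in the 200 kb on each side that begin 5 kb beyond the gene, against 7 for Dnah8, 12 for Fry and 28 for Mtus2.

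The next densest genes held 7 to 12 peaks each. Cacna1a, the pore-forming subunit of P/Q-type calcium channels, had 12 peaks on chromosome 8 (4.11 per 100 kb, 2.13 to 7.19, adjusted exact p = 7.34e-09), among them chr8:84536753-84537284, whose score of 179 was the highest of all 1030 peaks. The other 11 peaks of Cacna1a scored between 6.26 and 64.1, so the gene combined the strongest peak with many weak ones. Gse1, a coiled-coil protein found with the CoREST complex, had 12 peaks (3.50 per 100 kb, 1.81 to 6.11, adjusted exact p = 3.24e-08). They ran from 16.3 to 341 kb of its 353 kb span, with scores of 9.33 to 79.6, and formed 9 separate regions when joined. Osbpl10, an oxysterol-binding-like lipid transfer protein, had 11 peaks (4.49 per 100 kb, adjusted exact p = 1.59e-08), of which 10 lay no more than 132 kb from its lower coordinate.

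Rnf220, a ubiquitin ligase, had 10 peaks (4.64 per 100 kb, 2.22 to 8.53, adjusted exact p = 6.23e-08). Tacc2, a centrosomal coiled-coil protein, had 8 peaks (3.91 per 100 kb, adjusted exact p = 8.88e-06), and Tanc1, a postsynaptic scaffold, had 7 (3.12 per 100 kb, adjusted exact p = 0.000179) that made only 3 regions when joined. Dst, the giant cytoskeletal linker dystonin, had 11 peaks in 401 kb (2.81 per 100 kb, adjusted exact p = 1.29e-06). None of the peaks of Dst lay in the first 20% of the gene, and the nearest was 90.0 kb from the start.

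Dense genes also differed in how their peaks were laid out. In the postsynaptic scaffold gene Dlgap1, 852 kb long, all 10 peaks fell in the last 20% of the gene. The first 747 kb were empty, and 6 of the peaks stood together between 70765535 and 70783509 on chromosome 17. In Ank2, which encodes ankyrin-B and spans 579 kb, all 7 peaks fell in the first 20%, between 14.3 and 101 kb from the start. Cdh13, the gene of the GPI-anchored T-cadherin, was the only gene over 1 Mb that was called dense (13 peaks, 1.11 per 100 kb, adjusted exact p = 0.00106). Of its peaks, 8 were strewn over the gene and 5 stood within 1156 to 1168 kb of its lower coordinate, close to the upper end at 1185 kb. Counted as regions, Dlgap1 had 4, Ank2 had 3 and Cdh13 had 8, and none of these genes was called dense on that count. Gse1, Dst and Rnf220 kept 9, 9 and 6 regions and were called dense either way.

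**Figure D2:**
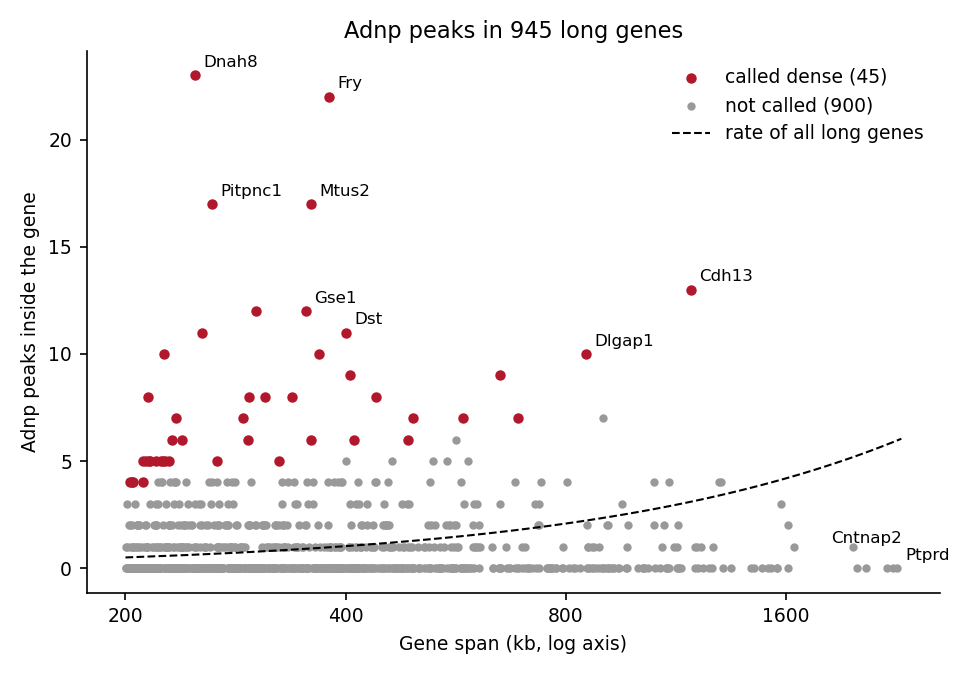
Number of Adnp peaks inside each of the 945 long genes against gene span in kb (log axis); red points are the 45 genes called dense, grey points the other genes, and the dashed line is the pooled rate of 0.264 per 100 kb. The 4 genes with most peaks span less than 400 kb, and Ptprd and Cntnap2, the longest, lie at 0.

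**Figure D3:**
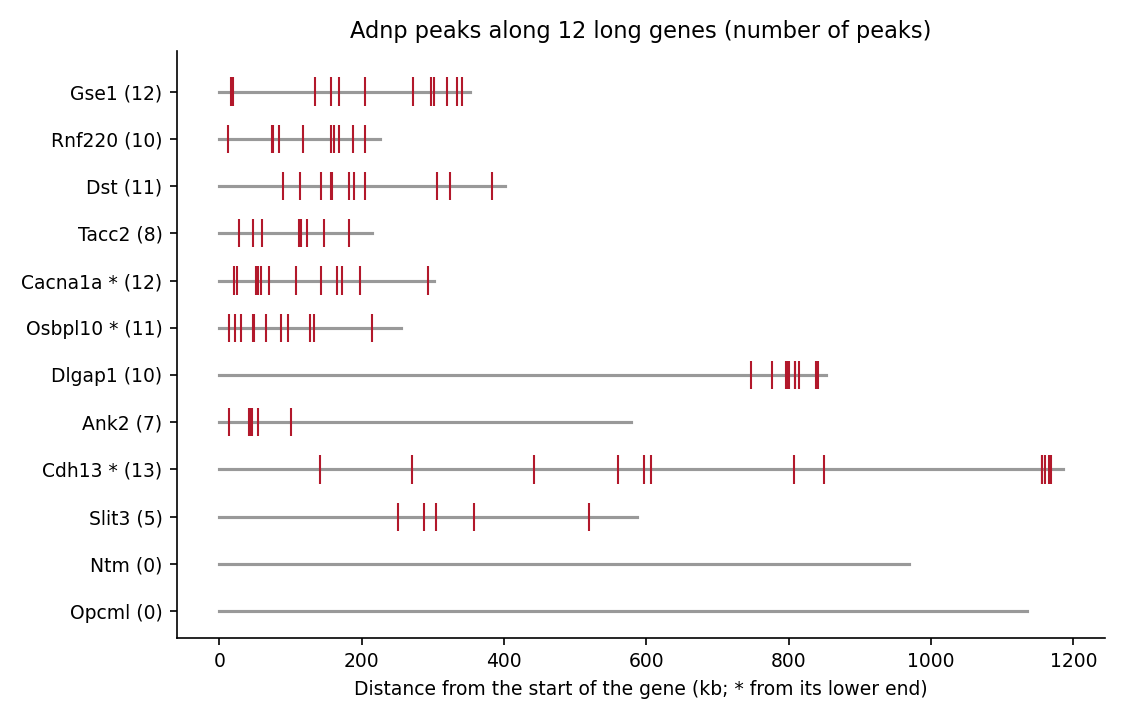
Position of each Adnp peak (red tick) along 12 long genes (grey line), in kb from the start of the gene or, for genes marked with a star, from its lower coordinate. Peaks are spread over Gse1 and Rnf220, sit at the far end in Dlgap1 and at the start in Ank2, and are missing from Ntm and Opcml.

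The very largest genes held few peaks for their length. Ptprd, a receptor tyrosine phosphatase of synapses and the longest gene at 2271 kb, held no peak, which allows a rate of up to 0.163 per 100 kb. Cntnap2, a neurexin-like adhesion protein (2241 kb), Lsamp, an immunoglobulin adhesion molecule of limbic neurons (2197 kb), and Lrp1b, a large lipoprotein receptor (2058 kb), were empty as well. So were Macrod2, a hydrolase of ADP-ribose marks (1998 kb), and Nrxn3, a presynaptic adhesion molecule (1612 kb). Among the 10 longest, Dlg2 held 1 peak, Csmd1 held 1, Fhit held 2 and Ctnna3 held 3. That made 7 peaks in 19.1 Mb, or 0.0367 per 100 kb (0.0148 to 0.0756). The next empty genes by length were Robo2, an axon guidance receptor (1555 kb), Pcdh15, a protocadherin of hair cells (1554 kb), Rbfox1, a neuronal splicing regulator (1528 kb), and Dpp10, a potassium channel partner (1514 kb). Of the 55 genes of 1 Mb or more, 36 were empty (65.5%), against 58.3% of all 945, so the share of empty genes differed far less with span than the rate did.

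No single long gene was called sparse by the exact binomial test (0 of 945, 0%), while 12 genes were sparse and 98 dense at an unadjusted p under 0.05. The lowest adjusted p of an empty gene was 0.0876, so at this number of peaks even 2 Mb without a peak did not pass the threshold. Set against the other long genes of its own chromosome, Ptprd (adjusted exact p = 0.0320) and the synaptic scaffold gene Magi2 (adjusted exact p = 0.0270) passed. Emptiness is therefore described by groups of genes.

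A total of 32 lists of related genes had 3 or more long members, and together they took in 329 of the 945 genes. Each list's pooled rate was compared with that of the other long genes as a ratio with an exact conditional interval; no test of a list was made. The interval lay above 1 for 6 lists and below 1 for 12, and these counts take no account of span. Genes in no list had a rate of 0.306 and included 28 of the 45 dense genes. Several lists hold very long genes, so beside most list counts stands the number of peaks that the rates of the 5 span classes of 200 kb and over would give its members.

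Cytoskeletal linkers formed the densest list that did not rest on 1 gene. The spectraplakins and ankyrins tie actin, microtubules and membranes together, and their 6 long genes held 33 peaks, 1.28 per 100 kb (0.882 to 1.80), where the span classes would give 7.13. Of the 6, 4 were dense: Dst, Macf1 (8 peaks, 2.44 per 100 kb, adjusted exact p = 0.000201), Ank3 (7 peaks, 1.45 per 100 kb, adjusted exact p = 0.00957) and Ank2. The nuclear envelope linkers Syne1 and Syne2 had none. Without Dst the list still had 1.01 (0.631 to 1.53). The axonemal dynein heavy chains had 28 peaks in 7 genes (1.56 per 100 kb), where the span classes would give 7.32, but 23 were those of Dnah8. The other dyneins had 0.321 (0.104 to 0.748), with 3 peaks in Dnah12 and none in Dnah9.

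Chromatin regulators were the other list that stayed above the remaining long genes without its fullest member. Their 16 genes held 36 peaks, 0.602 per 100 kb (0.422 to 0.833), where the span classes would give 17.6. Gse1 and Baz2b, a bromodomain subunit of ISWI-type remodellers (8 peaks, 2.66 per 100 kb, adjusted exact p = 0.000121), were dense. At the other extreme Hdac9, a class IIa histone deacetylase, had none in 870 kb. Auts2, which acts with a Polycomb complex, had 4 in 1106 kb. Its rate of 0.365 per 100 kb (0.0995 to 0.935) was above the 0.0674 of all genes of 1 Mb or more.

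Calcium channel subunits show how far 1 member can set a list's rate. The 8 genes held 17 peaks, where the span classes would give 8.47, 1.78 times the rate of the other long genes (1.03 to 2.87). Without Cacna1a, 5 peaks remained and the ratio was 0.569 (0.184 to 1.33), so the direction turned. Cacna1d had 3 peaks, Cacna1c had 1, and Cacna2d3 had none in 818 kb.

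Several lists of neuronal adhesion molecules and receptors were at the empty end, but not all lists of adhesion molecules and receptors were. Teneurins and adhesion G-protein-coupled receptors held 9 peaks in 6 genes, where the span classes would give 5.88. Cadherins held 18, where they would give 14.1, and receptor tyrosine phosphatases held 12, where they would give 9.28. The neurexins and Cntnap genes, which bridge pre- and postsynaptic membranes, had no peak in 7 genes and 7.43 Mb, which allows up to 0.0497 per 100 kb, where the span classes would give 7.23 peaks. The IgLON adhesion genes Lsamp, Opcml, Ntm and Negr1 had none in 5.02 Mb (up to 0.0736; the span classes would give 4.42). Leucine-rich repeat adhesion genes, among them Lrrc4c and Lingo2, had none in 4 genes (up to 0.101; 3.86). Contactins had 1 peak, in Cntn5, over 5 genes and 3.31 Mb, where the span classes would give 5.04.

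Other neurotransmitter receptors and guidance genes held few peaks. None of 5 metabotropic glutamate receptor genes, with Grm7 the longest at 922 kb, and none of 4 GABA-A receptor subunit genes held a peak; the span classes would give 5.98 and 4.02. Ionotropic glutamate receptors had 7 peaks in 10 genes (0.129 per 100 kb), where the span classes would give 10.6, and 4 of the 7 lay in Grik3, a kainate receptor. The interval of their ratio to the other long genes, 0.488 (0.196 to 1.01), reaches 1, so this list was not among the 12. Axon guidance ligands and receptors had 5 peaks in 14 genes (0.0614 per 100 kb, 0.0199 to 0.143), where the span classes would give 15.3. All 5 lay in Slit3, which encodes a secreted repellent. The guidance receptor genes Robo1, Robo2 and Dcc had none, nor had any other gene of the list.

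Emptiness was not limited to synaptic proteins or to the very longest genes. Potassium channel subunits and partners had 6 peaks in 18 genes (0.0787 per 100 kb, 0.0289 to 0.171), 0.296 times the rate of the other long genes (0.108 to 0.647). ADAM and ADAMTS proteases, which cut cell surface and matrix proteins and have a median span of 282 kb, had 1 peak in 10 genes, in Adam12, where the span classes would give 11.1. Further low lists were made of much longer genes, so they do not bear on span. Ephrin receptors and ErbB signalling genes, with a median span of 969 kb, had 3 peaks in 7 genes, where the span classes would give 6.74. Genes of common fragile sites, with a median span of 1163 kb, had 15 peaks in 20 genes (0.0606 per 100 kb). The span classes would give 21.1. Their ratio to the other long genes, 0.220 (0.123 to 0.365), takes no account of span. Of these genes, 8 also stand in another list.

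In rates that take no account of span, many lists were close to the other long genes. By span class, splicing regulators and guanylate kinase scaffolds were not close. Each held 17 peaks, where the span classes would give 9.57 and 8.04. Developmental transcription factors, the largest list, held 44 peaks in 43 genes (0.261 per 100 kb, 0.190 to 0.351), where the span classes would give 45.8. The homeobox and zinc finger gene Tshz2 alone was dense in it (8 peaks, 1.86 per 100 kb, adjusted exact p = 0.00117), the zinc finger repressor gene Zbtb20 had none in 759 kb, and Etv6 and Zfhx3 had 4 each. Solute carriers had 16 peaks in 16 genes (17.8 by span class), 9 of them in the zinc transporter gene Slc39a11, which was dense (adjusted exact p = 0.000106). Splicing regulators had 17 peaks in 9 genes (9.57 by span class), with the paralogues far apart: Rbfox2 held 5 in 229 kb and was dense (2.28 per 100 kb, adjusted exact p = 0.00926), while Rbfox1 held none. Membrane-associated guanylate kinases and their scaffolds had 17 peaks in 8 genes (8.04 by span class), 10 of them in Dlgap1, with Magi2 empty over 1485 kb. Cadherins had 18 peaks in 13 genes (14.1 by span class), 13 of them in Cdh13. Receptor tyrosine phosphatases had 12 peaks in 9 genes (9.28 by span class), 7 of them in Ptprg.

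**Figure D4:**
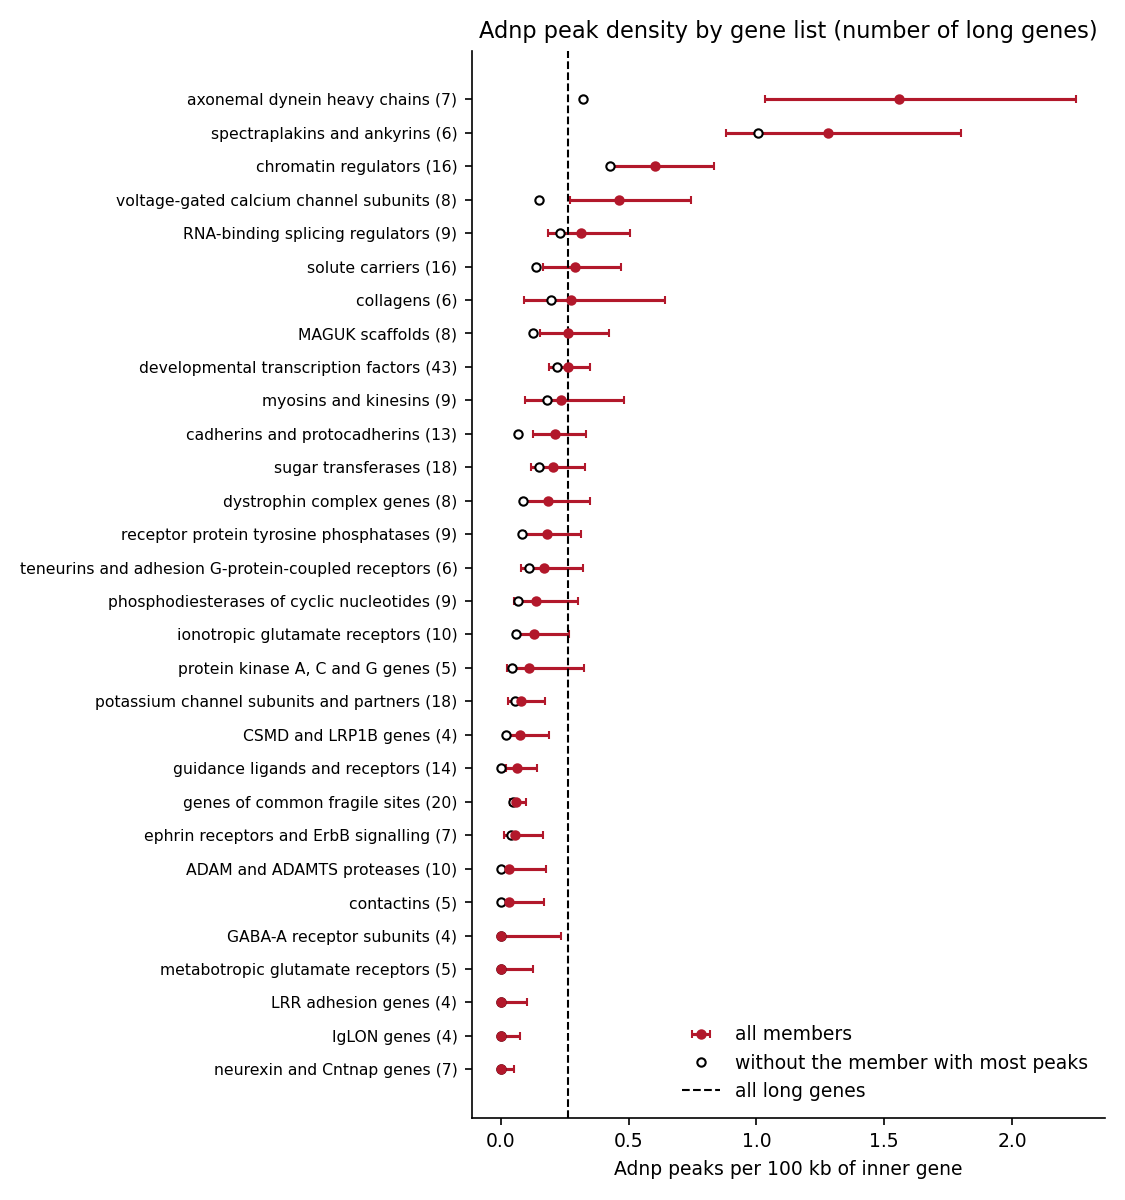
Adnp peaks per 100 kb of inner gene for 30 of the 32 lists of long genes, with the number of genes in brackets. Red points and bars are pooled rates with exact Poisson 95% intervals, open circles the rate without the member with most peaks, and the dashed line the rate of all long genes; dynein heavy chains and calcium channels move most when Dnah8 or Cacna1a is left out, and 5 lists lie at 0.

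Peak density inside a long gene went along with that of its surroundings. Flanks were the 200 kb on each side that begin 5 kb beyond the gene. The 359 genes with no Adnp peak in their flanks held 94 peaks inside, 0.0541 per 100 kb (0.0437 to 0.0662), and 83.6% of them were empty. Genes with 1 to 2 flank peaks had 0.214 (0.187 to 0.242), genes with 3 to 5 had 0.397 (0.349 to 0.450), and the 144 genes with 6 or more had 0.966 (0.879 to 1.06), with 22.9% of them empty. Across the 945 genes the rate inside and the rate in the flanks had a Spearman coefficient of 0.49 and a Pearson r of 0.51. This is a description over genes that share 1 list, and neighbouring genes share flanks.

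The dense genes stood in dense surroundings. Of the 45, 30 had 6 or more flank peaks, and 41 had a flank rate above the mean of all long genes (0.640 per 100 kb). The median flank rate of the dense genes was 1.75, and 18 of them had a higher rate in the flanks than inside. Among the lists at the extremes, the flank rate was 1.57 for dynein heavy chains and 1.54 for spectraplakins and ankyrins, against 0.107 for neurexins and Cntnap genes, 0.0893 for guidance genes and 0 for IgLON and leucine-rich repeat adhesion genes. Other lists broke this order. Myosins and kinesins, at 0.234 inside, had a flank rate of 1.22, while chromatin regulators, at 0.602 inside, had 0.703. The part of the surroundings in the rates inside was not tested.

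Span and surroundings each went with the rate. In genes of 200 to 400 kb the rate was 0.0832, 0.309 and 0.804 for 0, 1 to 2 and 3 or more flank peaks. In genes of 400 kb or more it was 0.0405, 0.151 and 0.433, lower in each class, with no overlap of the intervals between the 2 span groups at the same flank count. The 115 long genes with no other protein-coding gene in their flanks had 0.0656 per 100 kb (0.0477 to 0.0881), and the 94 with 8 or more had 0.546 (0.467 to 0.635). Of the 55 genes of 1 Mb or more, 37 had no flank peak. By chromosome, the rate inside long genes was highest on chromosomes 5 (0.472) and 17 (0.443) and lowest on chromosomes 12 (0.135) and 3 (0.149).

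Along the gene, with both ends pooled, peaks were more frequent towards the ends. The outermost 10% at each end of the inner stretch, 20% of its length together, held 292 of 1030 peaks (28.3%, Wilson interval 25.7 to 31.2). Outside the dense genes the share was 27.6% (24.4 to 31.2). By distance to the nearer gene end, the rate was 0.450 per 100 kb at 5 to 25 kb, 0.430 at 25 to 50 kb and 0.348 at 50 to 100 kb. It was 0.214 (0.188 to 0.242) at 100 to 200 kb and 0.0839 (0.0670 to 0.104) beyond 200 kb, a depth that only genes over 400 kb have. Over their whole inner length such genes had 0.237 at 400 to 600 kb, 0.129 at 600 to 1000 kb and 0.0674 at 1 Mb or more. The fall with distance thus mixes depth with span, and the part of each was not tested. The median peak lay 70.6 kb from the nearer end.

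The strand was known for 707 of the 945 genes, through the RefSeq promoter table, and 795 peaks could be read from the start of their gene. The first 10% of the inner stretch held 134 of them (16.9%, 14.4 to 19.6), the last 10% held 90 (11.3%, 9.30 to 13.7), and the fraction in the first 50% of the gene was 51.3% (47.8 to 54.8). The interval of the last 10% covers 10% and that of the first 10% lies above it. The difference between the sides was short in range. At 5 to 25 kb from the start there were 87 peaks, 0.615 per 100 kb (0.493 to 0.759), against 41, or 0.290 (0.208 to 0.393), at 5 to 25 kb from the far end, a ratio of 2.12 (1.45 to 3.16). At 25 to 50 kb the rates were 0.481 at the start and 0.430 at the far end, with overlapping intervals. At 50 to 100 kb they were 0.342 at the start and 0.348 at the far end, again with overlapping intervals. The far end intervals at these distances were 0.339 to 0.538 and 0.289 to 0.415. Every gene adds the same length at these distances, while the longest genes weigh most in the 0.264 of all long genes. A comparison with 0.264 therefore cannot show whether the far end exceeds the rest of the gene. The ratio at 5 to 25 kb was 1.70 (1.06 to 2.76) outside the dense genes and 1.08 (0.456 to 2.60) in genes of 400 kb or more, where 13 peaks were counted at the start and 12 at the far end.

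**Figure D5:**
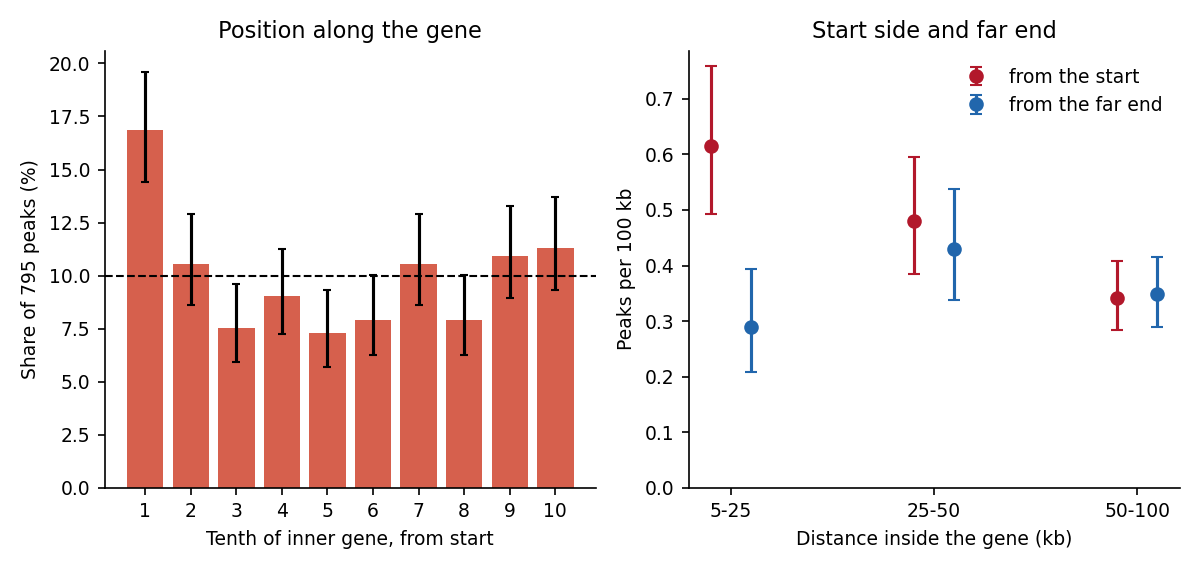
Left, share of 795 Adnp peaks (percent) in each 10% of the inner gene length from the start, with Wilson 95% intervals and a dashed line at 10%. Right, peaks per 100 kb against distance in kb from the start (red) or the far end (blue) of the gene, with exact Poisson 95% intervals; the sides differ at 5 to 25 kb, 0.615 against 0.290, and overlap farther in.

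Peaks inside long genes stood apart from each other more often than the other autosomal peaks. Another Adnp peak lay within 10 kb of 297 of 1030 (28.8%, 26.2 to 31.7), against 45.8% (45.0 to 46.6) of the other 13873. The rate of peaks was also lower inside long genes, 0.264 against 0.689 per 100 kb. A difference in spacing beyond that in rate was not tested. Joining peaks less than 10 kb apart left 861 regions, of which 31 held 3 or more peaks. The fullest held 6, in Dlgap1, followed by regions of 5 in Dnah8, Mtus2, Ank2 and Cdh13.

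In strength the peaks inside long genes were like the rest of the list. Their median score was 20.4 (quartiles 13.6 and 34.1), against 21.2 (13.9 and 33.6) for the other autosomal peaks, and their median width was 378 bp, against 398 bp. The very highest scores were found elsewhere, with a maximum of 179 inside long genes and 565 outside. Peaks in dense genes had a median score of 23.1, and those in the other long genes 19.7. A peak could be strong in an otherwise bare gene: besides Cacna1a and Dnah8 (176), the next scores were those of Apbb2 (173), an adaptor of the amyloid precursor protein, Syt1 (162), the calcium sensor of synaptic vesicle release, Vti1a (162), a SNARE protein, and Fhit (157), whose only other peak lay 355 kb away. Apbb2, Syt1 and Vti1a fall outside the rule for named genes and were chosen after their values were seen.

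HP1γ peaks from the list without the Adnp motif met few Adnp peaks, inside long genes and elsewhere. Of the 1030 peaks, 23 (2.23%, 1.49 to 3.33) overlapped an HP1γ peak by at least 1 bp, against 270 of the other 13873 peaks (1.95%, 1.73 to 2.19), and the intervals overlap. Because the list leaves out HP1γ peaks with the motif, the overlap does not give the share of Adnp peaks with HP1γ. They include the top peak of Dnah8 (chr17:30648663-30649215) and, in Cacna1a, a peak at chr8:84631757-84632503 with a score of 38.0, not its strongest one. The listed HP1γ peaks lay in 110 long genes, and 73 of these also held an Adnp peak, against 394 of all 945 long genes. These counts take no account of gene length. Some genes were blank for Adnp only: Lingo2 and the potassium channel gene Kcnma1 held an HP1γ peak each and no Adnp peak. Of the 1030 peaks, 52 overlapped a noncoding RNA gene and 5 another protein-coding gene, while 13 lay within 5 kb of one. The share of inner length near such genes was not computed, so these counts are not called high or low. Without stretches within 5 kb of other coding gene ends, 1019 peaks remained and the rate was 0.263 per 100 kb, against 0.264 with them.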

How the data were processed

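Peak calling was done by the authors, who deposited the Adnp and HP1γ lists as peak positions (mm10) with a score; positions and score were used as deposited. Of the tools in the submitters' processing notes, MACS2 calls peaks and Bowtie 1.0.0 and STAR 2.5.0a align reads; bcl2fastq 1.17 is listed as well. Their roles and the calling threshold were not given in the sources used here. Per the file names, the HP1γ list keeps peaks without the Adnp motif. The score's kind is not stated, and it is 0 throughout the HP1γ list, where it was not used. Starts were counted from 1. Gene spans came from a RefSeq table of GRCm38.p6, which holds no exons, and strand from the RefSeq promoter table. Mappability and repeats of the long genes were not analysed here.

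Computed here in SciPy 1.17.1 and pandas 2.3.3 (Python 3.11.15, with NumPy 2.4.6; plots by matplotlib 3.10.9) were peaks per 100 kb of inner length, exact Poisson, Wilson and exact conditional 95% intervals, and the exact binomial test per gene, tested on simulated data. Genes named are the 10 densest with 4 or more peaks, the 10 with most peaks, the 10 longest, the 10 longest empty, the 3 on each side of 200 kb, and in each list the densest, the emptiest and up to 2 more by count; Ank3, Syne2 and Negr1 complete small lists. Members and gene lists were chosen with earlier results of these data known. Alternatives were score, joining, length limit, margin, excluded stretches, own chromosome and overlap rule. The 82 samples of the series include RNA-seq, not used here. A few genes and gene lists are not reported here.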

Additional observations from a re-analysis of the deposited data

How the results depend on the processing

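The rate inside long genes, 0.264 per 100 kb, was 0.127 with peaks at or above the list's median score, 0.221 with peaks joined, 0.246 with a 20 kb margin and 0.229 without the 10 genes with most peaks, in each case from fewer peaks; it was 0.411 for genes of 100 kb or more and 0.195 for 300 kb or more. With those limits 1277 and 316 genes were empty, 98 and 24 were dense, and 24.6% and 31.8% of peaks lay in the outermost 10% at each end. Of the 45 dense genes, 31 were among the 98 and 20 among the 24, where genes under 300 kb drop out. At 100 kb, 5 genes were sparse. The higher scores alone left 20 dense genes, all among the 45, and a median score of 35.0. Tested against its own chromosome, 2 genes were sparse and 47 dense, 37 of them among the 45. Within 5 kb and 20 kb of another peak lay 16.7% and 42.4%. Without each list's fullest member, 2 lists were above and 19 below the other long genes, and the calcium channels turned to 0.569 times the other long genes, from 1.78. The ratio of start to far end was 1.08 in genes of 400 kb or more, 1.79 with peaks joined and 2.16 with the higher scores. The causes were not tested. Among the ratios of single lists, 85 values stayed within the interval as reported and 10 moved out of it. Of these 10, those of guanylate kinase scaffolds and solute carriers crossed 1 without the fullest member. They went from 1.00 to 0.475 and from 1.11 to 0.522, and the intervals of both lists as reported covered 1. The other settings run for the results above left them within the reported interval or, for counts, within 1.5 times; the block of rows that opens the list, the 10 genes left out, the dense genes left out, the start side settings and the span class counts were chosen after seeing the data. No paired analysis was possible because the authors pooled the replicates into 1 list, and for the same reason no replicate could be left out.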
